A study of Homo sapiens with 9 samples.

Results

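SET2 is a human megakaryoblastic line with a JAK2 mutation, and the labels give it as acute myeloid leukemia that followed a myeloproliferative neoplasm. Here, clones 11H1 (n = 3 libraries) and 14B5 (n = 3), both DYRK1A KO, were compared with each other, which used 6 of the 9 RNA-seq libraries of the series and all 16352 genes that passed the filter on low counts, out of 60662 in the table. WT SET2 (n = 3) is given beside the clones. All cells were untreated. Both clones were made with the same guide RNA delivered with Cas9 protein, sorted as single cells and kept for out-of-frame indels in DYRK1A. Each clone therefore goes back to 1 founder cell, no unedited cell taken through the same sorting was sequenced, and a property of the founder cannot be told apart from an effect of the edit or of later culture. The labels do not say whether the 3 libraries of a clone came from separate cultures, so the p-values measure the spread between these libraries, which may be technical.

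DYRK1A is a protein kinase that phosphorylates, among others, a subunit of the DREAM complex, which represses cell cycle genes in quiescent cells. Cells of a leukemia line are not identical: they can differ in DNA methylation, imprinting and stage of differentiation, and a clone passes the state of its founder to its descendants. Megakaryocytic leukemia cells can carry genes of platelets, red cells, mast cells and stem cells side by side, and part of these genes are shared with the endothelium, which arises from a common progenitor in the embryo.

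The 3 libraries of 11H1 held 32347779 to 53582343 expected counts, those of 14B5 44622303 to 60272245 and those of WT 40995338 to 50311970. Levels are counts scaled to library size (CPM). In a principal component analysis the first component (46.7% of the variance) set WT apart from both clones and the second (34.3%) set 11H1 at -44.1 to -42.8 apart from 14B5 at 37.9 to 41.0, with WT between them at 1.64 to 6.82. Megakaryocyte and erythroid markers were present in both clones, with ITGA2B at 602 to 653 CPM and HBA1 at 1348 to 1841 CPM, whereas PF4 was at 0 in all 6 clone libraries and PPBP did not pass 0.0917 CPM. Markers of other cell types were uneven. Of the monocyte markers, CD14 and FCN1 did not pass 0.123 CPM in a clone library, whereas LYZ was at 101 to 124 CPM. Of the B cell markers, MS4A1 was at 0 and CD79A at 11.2 to 16.0 CPM. Of the stromal markers, DCN and COL1A2 did not pass 0.0367 CPM, whereas COL1A1 was at 1.64 to 2.30 CPM in 11H1 and 0.272 to 0.411 CPM in 14B5. The granulocyte markers went both ways. The neutrophil protease gene ELANE was at 0.0299 to 0.0897 CPM in 11H1 and at 0.645 CPM or more in 14B5 (log2FC -3.63). MPO was higher in 11H1, at 0.508 to 0.697 against 0.153 to 0.176 CPM (log2FC 1.92). CSF3R was also higher there, at 1.08 to 1.94 against 0.981 to 1.22 CPM (log2FC 0.57). The part of such cells in the clone differences was not tested.

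DYRK1A itself (chr21:37365573-37526358, GRCh38) did not separate the clones at the RNA level. It was at 188, 188 and 189 CPM in 11H1, at 194, 185 and 176 CPM in 14B5, and at 195, 196 and 219 CPM in WT. The clone ranges overlapped (log2FC 0.07 ± 0.05 SE, edgeR adjusted p = 0.216), and an exact 2-sided permutation test over the 6 libraries gave p = 0.7, where the smallest possible p is 0.1. Against WT, 14B5 was called slightly lower (log2FC -0.17, edgeR adjusted p = 0.0278) and 11H1 was not called different (log2FC -0.09, adjusted p = 0.131). Small indels in a coding exon need not change how many reads a gene receives, so the RNA level is not a check of the edit.

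The clones differed widely at small effect sizes. Of the 16352 genes, 10419 (63.7%) differed by edgeR's quasi-likelihood F test, 5162 higher in 11H1 (31.6%) and 5257 lower (32.1%), and 6060 of these calls (58.2%) were under 0.5 on the log2 scale. Tested against a 2-fold difference (glmTreat), 649 genes remained (3.97%), and here the split was uneven, with 553 higher in 11H1 (3.38%) and 96 lower (0.587%). Many of these were of low level: 328 of the 553 and 55 of the 96 had a mean under 5 CPM even in the higher clone. Genes over 8-fold apart numbered 70 higher and 19 lower in 11H1. The biological coefficient of variation within the clones was 0.0583, so differences far under 2-fold passed the test. Against WT, with the same test, 64.6% of genes differed in 11H1 and 53.5% in 14B5. These comparisons share the WT libraries.

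**Figure D1:**
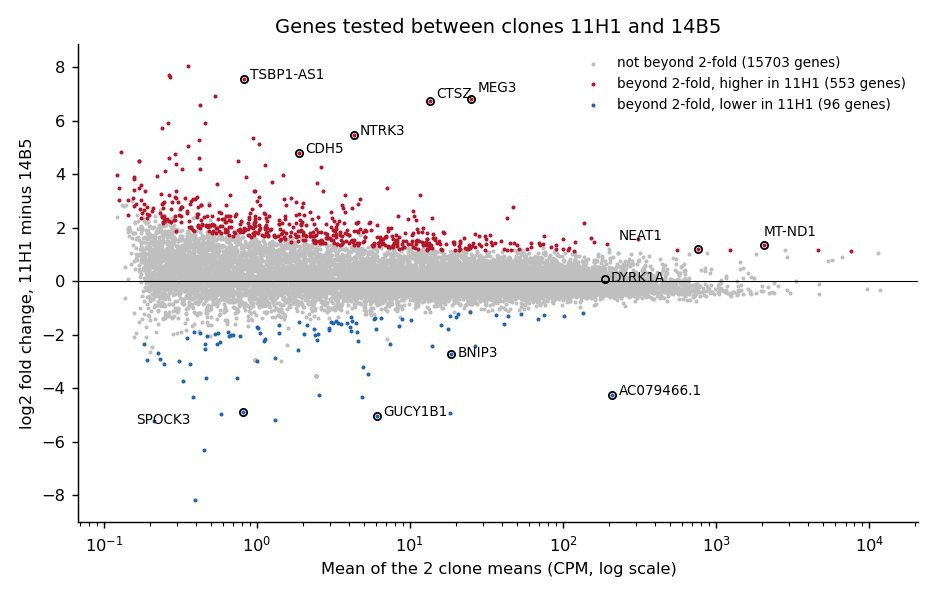
Log2 fold change of 11H1 minus 14B5 (vertical axis) against the mean of the clone means in CPM (horizontal axis, log scale) for the 16352 genes tested. Red points are the 553 genes beyond 2-fold higher in 11H1 and blue points the 96 lower; DYRK1A lies near 0, and named genes such as MEG3, CTSZ and AC079466.1 lie far outside the cloud.

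A small group of genes was present in one clone and all but absent from the other. With at least 1 CPM in every library of one clone and at most 3 counts in every library of the other, 4 genes qualified: ARAP3 and TSBP1-AS1 were present in 11H1, SPOCK3 and AC005307.1 in 14B5. The promoters of ARAP3 and SPOCK3, the 2 protein-coding genes, are printed here, together with those of MEG3, CTSZ and GUCY1B1, which lie further up in level and were picked after their values were seen. Each run is the RefSeq sequence of GRCh38.p14 from 250 bases before to 50 bases after the gene start, on the gene's own strand, with every CG, the dinucleotide that carries DNA methylation, in capitals. The windows are chr5:141682181-141682480 (minus strand) for ARAP3, chr4:167234445-167234744 (minus) for SPOCK3, chr14:100825858-100826157 (plus) for MEG3, chr20:59007205-59007504 (minus) for CTSZ and chr4:155758771-155759070 (plus) for GUCY1B1. Gene positions given elsewhere are those of GENCODE, and the RefSeq start of MEG3 lies 46.7 kb, and that of SPOCK3 302 bases, inside the gene as GENCODE places it, so that these 2 windows are not at the GENCODE start; the other 3 starts are within 29 bases of it.
ARAP3: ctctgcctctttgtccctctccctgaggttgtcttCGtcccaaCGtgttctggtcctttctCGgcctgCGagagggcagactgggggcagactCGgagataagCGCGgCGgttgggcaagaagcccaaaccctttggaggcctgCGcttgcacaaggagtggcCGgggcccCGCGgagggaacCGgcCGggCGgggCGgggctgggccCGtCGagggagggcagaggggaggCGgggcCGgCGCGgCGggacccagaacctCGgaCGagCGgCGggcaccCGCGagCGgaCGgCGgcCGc
SPOCK3: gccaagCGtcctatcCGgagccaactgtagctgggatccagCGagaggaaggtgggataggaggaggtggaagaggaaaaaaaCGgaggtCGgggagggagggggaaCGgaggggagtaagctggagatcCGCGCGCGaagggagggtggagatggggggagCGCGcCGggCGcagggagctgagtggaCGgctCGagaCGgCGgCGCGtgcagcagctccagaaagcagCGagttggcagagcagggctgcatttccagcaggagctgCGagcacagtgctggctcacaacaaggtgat
MEG3: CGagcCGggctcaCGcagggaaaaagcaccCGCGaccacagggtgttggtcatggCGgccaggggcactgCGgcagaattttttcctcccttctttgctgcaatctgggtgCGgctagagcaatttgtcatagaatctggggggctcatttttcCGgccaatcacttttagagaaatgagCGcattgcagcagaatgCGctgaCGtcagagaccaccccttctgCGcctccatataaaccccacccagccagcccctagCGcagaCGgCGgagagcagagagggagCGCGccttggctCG
CTSZ: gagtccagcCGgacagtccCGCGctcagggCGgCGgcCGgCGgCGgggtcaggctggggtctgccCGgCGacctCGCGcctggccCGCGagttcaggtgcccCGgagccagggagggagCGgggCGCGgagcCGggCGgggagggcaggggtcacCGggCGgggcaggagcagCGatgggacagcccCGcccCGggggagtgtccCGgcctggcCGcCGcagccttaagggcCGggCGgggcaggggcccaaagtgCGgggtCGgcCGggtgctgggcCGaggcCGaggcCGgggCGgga
GUCY1B1: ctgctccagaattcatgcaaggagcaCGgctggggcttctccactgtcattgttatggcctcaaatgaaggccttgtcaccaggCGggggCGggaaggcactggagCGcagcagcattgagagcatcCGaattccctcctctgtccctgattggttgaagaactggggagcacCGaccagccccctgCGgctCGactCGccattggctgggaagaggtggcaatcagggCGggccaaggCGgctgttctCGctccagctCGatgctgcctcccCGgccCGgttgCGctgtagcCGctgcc
They held 33, 22, 19, 37 and 17 CG, beside a median of 26 (quartiles 17.0 and 34.0) over the promoters of the 10712 genes tested that were found in the table (65.5%). The GATA-type motif, searched as AGATAA or TGATAA on both strands, was in the ARAP3 promoter and in none of the other 4, and in 8.53% of those 10712. A promoter was found for 335 of the 649 genes beyond 2-fold (51.6%), under the 80% needed, so a comparison of promoters over that set is void. DNA methylation was not measured in this series.

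ARAP3 (chr5:141653401-141682221), which encodes a GTPase-activating protein, was at 1.504, 1.794 and 2.273 CPM in 11H1, against 0.0228, 0.0509 and 0.0529 CPM in 14B5, and WT was at 6.63 to 7.52 CPM. All 14B5 libraries together held 7 counts, so the ratio of the clones was 40.9 with a 95% counting interval of 19.5 to 103. Both clones were below WT, by 1.93 on the log2 scale in 11H1 (adjusted p = 2.85e-07) and by 7.29 in 14B5 (adjusted p = 3.71e-09). TSBP1-AS1, a long noncoding RNA in the MHC region (chr6:32254640-32407763), was at 1.56, 1.32 and 2.03 CPM in 11H1, while 14B5 held 1 count over its 3 libraries. That ratio was 259 with an interval of 45.9 to 10274, and WT lay between the clones at 0.693 to 0.877 CPM. SPOCK3 (chr4:166733384-167234796), a proteoglycan gene, had the reverse pattern, with 0.0367, 0.0897 and 0.0299 CPM in 11H1 and 1.35, 1.63 and 1.76 CPM in 14B5. The ratio was 32.3 in favor of 14B5 (interval 14.7 to 89.0), and WT, at 2.04 to 3.07 CPM, was on the side of 14B5. These intervals cover counting error only.

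Noncoding RNAs of the imprinted DLK1-MEG3 locus on chromosome 14 were present in 11H1 and nearly absent in 14B5. MEG3, a maternally expressed long noncoding RNA (chr14:100779410-100861031), was at 50.9, 49.7 and 48.6 CPM in 11H1, at 0.320, 0.458 and 0.546 CPM in 14B5, and at 39.5, 39.0 and 32.5 CPM in WT. The groups did not overlap, and the clones were 113-fold apart (log2FC 6.82 ± 0.10 SE, adjusted p beyond 2-fold 1.76e-12). MEG8 and MEG9, noncoding RNAs of the same locus, followed the same order. MEG8 was at 0.697, 0.389 and 0.508 CPM in 11H1 with no count in 14B5, at least 29.8-fold higher against a floor of 3 counts over the group, and MEG9 was at 0.752, 0.867 and 0.897 CPM with 1 count in all of 14B5. Both lay within 0.463 to 0.827 CPM in WT. MEG8, MEG9 and LINC02285 formed 1 of 6 runs of at least 3 neighboring tested genes beyond 2-fold in the same direction. Of 30 imprinted genes tested, 15 were higher in 11H1 (beside 31.6% of all genes) and 6 lower (beside 32.1%), with a median log2FC of 0.35 beside -0.0044 over all genes. KCNQ1OT1, the antisense RNA of another imprinted cluster, was at 8.66, 7.24 and 8.43 CPM in 11H1, against 1.92, 2.33 and 2.48 CPM in 14B5, with WT between them at 2.83 to 4.41 CPM. L3MBTL1, a chromatin reader gene, was at 12.5 to 14.1 CPM in 11H1 and 5.13 to 6.59 CPM in 14B5 (log2FC 1.23 ± 0.09, adjusted p = 4.6e-07).

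The longest run of neighboring genes went the other way. On chromosome 19, 5 noncoding genes between 28418483 and 28727680 (309 kb) were lower in 11H1. AC079466.1 (chr19:28606688-28615229) had 21.3, 21.4 and 18.2 CPM in 11H1, 394, 409 and 393 CPM in 14B5, and 533 to 568 CPM in WT (log2FC -4.25 ± 0.06, adjusted p beyond 2-fold 1.76e-12). AC005394.2, which spans it on the opposite strand, was at 0.897 to 1.28 CPM in 11H1, 34.0 to 36.1 CPM in 14B5 and 18.7 to 20.1 CPM in WT. AC005307.1 was at 0.0550 to 0.0897 CPM in 11H1 and 2.14 to 2.98 CPM in 14B5, a ratio of 38.9 (interval 19.6 to 90.7). AC005381.1 and AC005394.1 were 19.5-fold and, with 4 counts in 11H1, 35.2-fold lower (interval of the latter 13.5 to 131). These 5 genes overlap in part, so reads may be divided among them.

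Protein-coding genes furthest above in 11H1 came from several families. CTSZ, the lysosomal protease cathepsin Z (chr20:58995185-59007247), was at 27.4, 26.4 and 27.0 CPM in 11H1, at 0.251, 0.289 and 0.229 CPM in 14B5, and at 62.1 to 63.8 CPM in WT. It was 105-fold apart between the clones (log2FC 6.74 ± 0.10), the largest difference among protein-coding genes of at least 5 CPM. NTRK3, a neurotrophin receptor tyrosine kinase (chr15:87859751-88256768), was at 8.18, 7.68 and 9.30 CPM in 11H1 and 0.137, 0.187 and 0.247 CPM in 14B5 (44.1-fold), with WT at 14.4 to 17.5 CPM. In both genes every 14B5 library was far under all others.

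F2RL2, a protease-activated receptor of platelets, was at 12.93, 13.04 and 12.98 CPM in 11H1 and 1.35, 0.985 and 1.27 CPM in 14B5, and CACNG8, an auxiliary subunit of ion channels, was at 22.3, 19.8 and 20.7 CPM against 1.99, 2.21 and 2.69 CPM. In both, WT lay between the clones, at 5.21 to 6.75 and 6.24 to 9.03 CPM. ZNF280D, a zinc finger gene, was at 6.52 to 7.10 CPM against 0.685 to 0.781 CPM. TJP1, which encodes the tight junction protein ZO-1, was at 8.26 to 8.61 CPM against 0.881 to 1.21 CPM. MMRN1, multimerin of platelet alpha granules, was at 6.94 to 8.61 CPM against 1.04 to 1.26 CPM, and WT was above both at 16.2 to 18.5 CPM. RASGRP3, a Ras activator, was 7.08-fold higher in 11H1. PLS3, the actin-bundling protein plastin 3 on chromosome X, was at 82.5, 81.2 and 81.9 CPM in 11H1, not called different from WT at 77.3 to 87.2 CPM (adjusted p = 0.64, log2FC 0.03), and at 13.4, 12.4 and 11.1 CPM in 14B5. FRAS1, an extracellular matrix gene, had the same arrangement at 6.37 to 7.67, 0.951 to 1.21 and, in WT, 6.96 to 7.56 CPM.

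Protein-coding genes furthest below in 11H1 differed in where WT lay. In 5 of the 10, 14B5 stayed nearer to WT and 11H1 was low. GUCY1B1, the beta subunit of the nitric oxide receptor guanylate cyclase (chr4:155758992-155807591), was at 0.569, 0.0598 and 0.299 CPM in 11H1, against 12.8, 11.8 and 11.1 CPM in 14B5, with WT at 16.5 to 19.7 CPM (log2FC -5.04 ± 0.27). SEC14L2, a lipid transfer protein, was at 0.748 to 1.01 CPM against 9.45 to 10.1 CPM, and BCL6B, a transcriptional repressor, at 0.568 to 1.196 CPM against 8.67 to 9.12 CPM, with WT above both clones in each case. BNIP3, a mitophagy receptor induced by hypoxia (chr10:131966455-131982013), was at 4.62, 4.96 and 4.75 CPM in 11H1, at 30.9, 38.5 and 27.7 CPM in 14B5 and at 58.4 to 72.9 CPM in WT. Its reads are shared with a processed copy, BNIP3P1, so the level is uncertain. GNLY, granulysin, was at 1.495 to 1.596 CPM in 11H1 and 6.71 to 8.65 CPM in 14B5, not called different from WT at 6.87 to 7.48 CPM (log2FC 0.06, adjusted p = 0.65).

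In 3 others both clones were above WT and 14B5 further above. PLA2G2A, a secreted phospholipase, was at 8.51, 7.95 and 7.96 CPM in 11H1, against 45.3, 41.4 and 48.5 CPM in 14B5, while WT was at 0.630 to 0.766 CPM. MAL, a proteolipid of lymphocytes and myelin, was at 3.83 to 4.40 CPM against 23.0 to 24.2 CPM, with WT at 0.685 to 0.926 CPM. WSCD2 was at 2.18 to 2.69 CPM against 11.9 to 13.4 CPM, with WT at 0.403 to 0.525 CPM. All 3 genes were higher in each clone than in WT by edgeR (adjusted p of 7.18e-07 or less). In the remaining 2 genes WT lay between the clones. CD9, a tetraspanin of platelets, was at 1.79 to 2.09 CPM in 11H1, 6.30 to 7.88 CPM in 14B5 and 2.14 to 2.73 CPM in WT, and FGF2, a growth factor, was 3.75-fold lower in 11H1 than in 14B5.

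**Figure D2:**
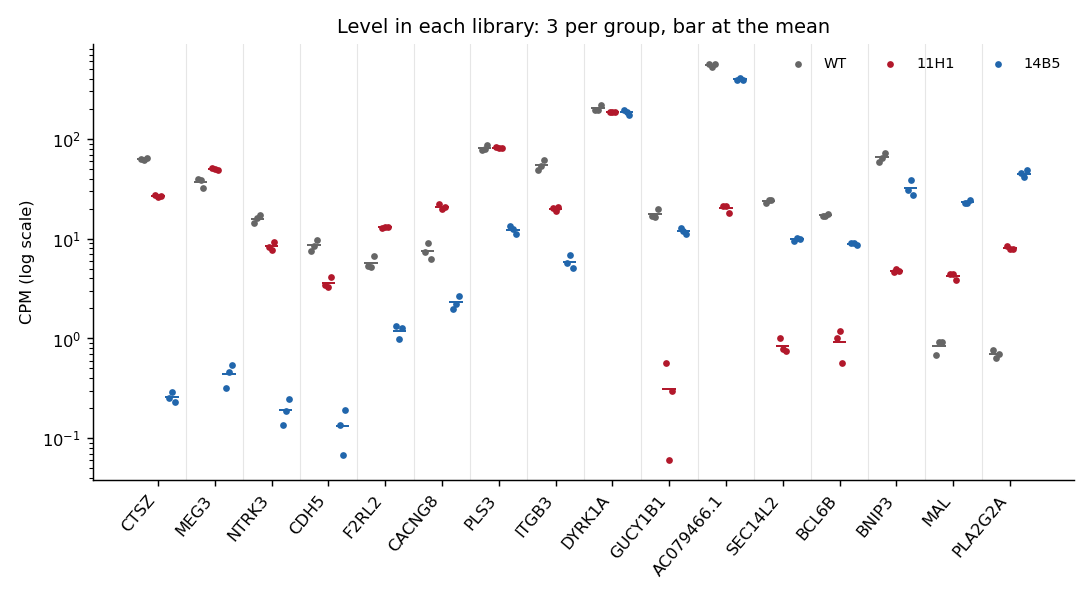
CPM (log scale) of 16 genes in each library of WT (grey), 11H1 (red) and 14B5 (blue), with a bar at the mean of the 3 libraries. DYRK1A lies within 176 to 219 CPM in the 9 libraries, CTSZ, MEG3 and NTRK3 are under 1 CPM in 14B5 alone, and GUCY1B1 is under 1 CPM in 11H1 alone.

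Among the genes of highest level beyond 2-fold, 4 of the 5 higher in 11H1 were encoded by the mitochondrial genome. MT-ND1, a subunit of respiratory complex I, was at 3045, 2817 and 2852 CPM in 11H1 and 1293, 1121 and 1107 CPM in 14B5 (log2FC 1.35 ± 0.06, adjusted p beyond 2-fold 0.000317). MT-ND2 and the ribosomal RNAs MT-RNR1 and MT-RNR2 were 2.19-fold, 2.20-fold and 2.11-fold higher. The other gene was NEAT1, the RNA scaffold of nuclear paraspeckles, at 1041, 1078 and 1057 CPM in 11H1, 496, 445 and 470 CPM in 14B5 and 339 to 475 CPM in WT. Lower in 11H1, beside AC079466.1, were LGALS3BP, a secreted galectin ligand (34.2 to 38.7 against 96.9 to 104 CPM), MS4A3, a gene of basophil and granulocyte progenitors (56.1 to 58.8 against 144 to 147 CPM), LITAF, an endosomal protein (41.6 to 45.5 against 107 to 110 CPM), and LEPR, the leptin receptor (76.5 to 84.2 against 172 to 203 CPM). WT was above both clones for LGALS3BP, MS4A3 and LITAF, and between them for LEPR at 86.5 to 109 CPM.

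The mitochondrial share of all counts was 7.25%, 7.23% and 7.39% in 11H1 and 3.92%, 3.50% and 3.30% in 14B5, a difference of 3.71 percentage points. The clones did not overlap, and the exact 2-sided permutation test gave p = 0.1, the smallest that 3 libraries against 3 allow. WT ranged from 3.54% to 6.03%, a spread wider than in either clone. All 13 mitochondrially encoded protein genes were higher in 11H1 (median log2FC 1.018), MT-ND6 the most, at 181, 237 and 251 CPM against 48.5, 44.7 and 58.4 CPM. Nuclear genes of the same respiratory chain had the opposite sign: of 71 tested, none was higher in 11H1 and 62 were lower (median log2FC -0.34). Both counts stand beside 31.6% higher and 32.1% lower over all genes tested. The nuclear median came to -0.14, and the mitochondrially encoded one to 1.152, with the trend of length and level, described further on, removed. NDUFS4, a complex I subunit, was at 7.98 to 9.45 CPM in 11H1 and 13.7 to 14.5 CPM in 14B5 (log2FC -0.65 ± 0.08).

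WT did not sit on a fixed side of the clones. Among the 553 genes higher in 11H1, the WT mean was nearer to 11H1 for 265 (47.9%) and nearer to 14B5 for 288 (52.1%). It was between the clones for 320, above both for 156 and below both for 77. Among the 96 genes lower in 11H1, WT was nearer to 14B5 for 68 (70.8%), above both clones for 44, between them for 34 and below both for 18. For 156 of the 649 genes every 11H1 library was above every WT library and every 14B5 library below, and for 22 the order was reversed.

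**Figure D3:**
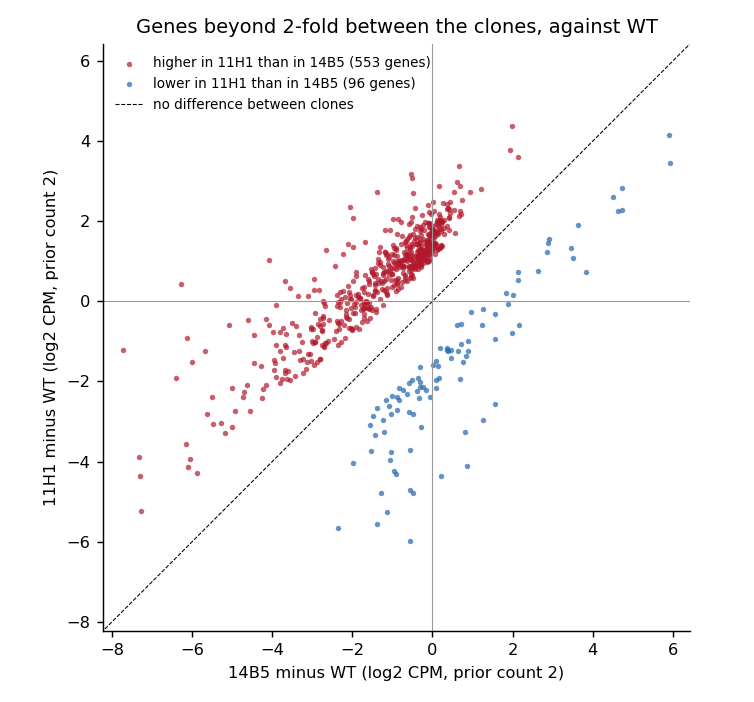
Log2 difference from WT in 11H1 (vertical axis) and in 14B5 (horizontal axis) for the 649 genes beyond 2-fold between the clones, as mean log2 CPM with a prior count of 2. Points above the dashed line are the 553 genes higher in 11H1 and points below it the 96 lower; both sets spread over positive and negative differences from WT, and both axes share the WT libraries.

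Platelet and megakaryocyte surface genes were mostly higher in 11H1. Of 17 platelet surface receptor genes tested, 10 were higher (58.8%) and 3 lower (17.6%), with a median log2FC of 0.22. These and all list counts that follow stand beside 31.6% higher and 32.1% lower over all genes tested. GP9, a subunit of the von Willebrand factor receptor, was at 3.76, 4.72 and 4.16 CPM in 11H1 and 0.844, 1.018 and 0.581 CPM in 14B5, and ITGB3, the beta chain of the fibrinogen receptor, at 20.6, 18.9 and 20.7 CPM against 5.66, 6.81 and 5.07 CPM. GP6, the collagen receptor, was 4.52-fold higher in 11H1. WT was above both clones for each of the 3 (20.1 to 24.5, 49.3 to 61.4 and 5.18 to 6.04 CPM). Against the direction of the list, CD9 was higher in 14B5, and the alpha chain ITGA2B differed little (log2FC 0.11, adjusted p = 0.025). Of 13 platelet granule genes, 6 were higher and 3 lower in 11H1 (median 0.19). THBS1, thrombospondin, was at 8.70 to 8.91 CPM in 11H1 and 1.94 to 2.05 CPM in 14B5, and EGF at 1.495 to 2.153 against 0.183 to 0.299 CPM. Of 26 platelet signaling genes, 13 were higher and 9 lower. ADRA2A, an adrenaline receptor, was 18.5-fold higher in 11H1 at 4.33 to 5.77 CPM, above WT at 1.05 to 1.27 CPM. Contractile and cytoskeletal genes were split, 9 higher and 10 lower of 21, and MYLK, myosin light chain kinase, was 8.19-fold higher. Cyclic nucleotide genes (5 higher, 8 lower of 20), led by GUCY1B1, and WAVE and WASP genes (6 higher, 13 lower of 27) completed this group.

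By their list medians, stem and endothelial genes lay below WT in both clones and further below in 14B5, and mast cell genes lay below WT in both clones. Of 15 stem and progenitor genes, 8 were higher and 2 lower in 11H1 than in 14B5 (median 0.37), with list medians of -0.75 in 11H1 and -1.16 in 14B5 against WT. CD34, a surface protein of hematopoietic progenitors, was at 96.0, 96.5 and 105 CPM in 11H1, 46.8, 50.8 and 49.4 CPM in 14B5, and 257 to 287 CPM in WT. NPR3, a natriuretic peptide receptor, was 8.61-fold higher in 11H1 than in 14B5, which was at 0.106 to 0.289 CPM, with WT far above both at 37.8 to 39.7 CPM. Of 11 mast cell, basophil and eosinophil genes, 4 were higher and 3 lower in 11H1 (median 0.0011), and the list medians against WT were -1.63 in 11H1 and -1.46 in 14B5. Members went both ways, with FCER1A, the alpha chain of the IgE receptor, at 44.2 to 50.3 against 15.6 to 16.2 CPM, CPA3, a mast cell protease, 4.25-fold higher, and MS4A3 lower. Of 9 stromal and endothelial markers, 4 were higher and 1 lower. CDH5, the endothelial cadherin, was at 3.45, 3.29 and 4.16 CPM in 11H1 and 0.137, 0.0679 and 0.194 CPM in 14B5, with WT at 7.58 to 9.75 CPM. A longer endothelial list, put together after these values were seen, had 12 of 21 genes higher and 2 lower, with medians against WT of -0.83 in 11H1 and -1.28 in 14B5. KDR, a VEGF receptor, was at 0.508 to 0.987 CPM in 11H1, at or under 0.0849 CPM in 14B5 and at 11.7 to 13.1 CPM in WT. FGD5 and ROBO4 held 5 and 4 counts over the 14B5 libraries and were 26.0-fold (interval 10.8 to 81.9) and 22.3-fold (8.33 to 84.3) lower there. The summed level of that list was 1405 to 1472 CPM in WT, 1020 to 1034 CPM in 11H1 and 944 to 971 CPM in 14B5. In bulk RNA, fewer cells of a kind and less RNA per cell cannot be told apart.

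Erythroid genes had no common direction. Of 23 globin and heme genes, 7 were higher and 11 lower in 11H1 (median -0.15), with HBZ, embryonic zeta globin, at 16.4, 19.2 and 18.1 CPM against 3.47, 3.09 and 3.52 CPM. Of 24 red cell membrane genes, 10 were higher and 7 lower, among them GYPB, a glycophorin, at 16.5 to 19.8 against 4.66 to 5.58 CPM, a gene that shares reads with its paralogs. Of 32 megakaryocyte and erythroid transcription factors, 11 were higher and 9 lower. IKZF2 was at 13.3 to 13.6 against 4.88 to 6.53 CPM and ETS1 at 130 to 146 against 65.2 to 72.9 CPM, whereas KLF1, which drives globin genes, was lower in 11H1 at 263 to 300 against 412 to 457 CPM. None of the 32 passed the test beyond 2-fold. Myeloid markers (7 higher, 6 lower of 15) and lymphoid markers (2 higher, 4 lower of 10) were mixed. CD3D, a T cell receptor chain, was at 3.04, 2.36 and 3.56 CPM in 11H1 against 0.297 to 0.407 CPM in 14B5, while its partner CD3E did not pass 0.389 CPM in any clone library. NKG7, another T and NK marker, went the other way at 9.87 to 11.9 CPM in 11H1 against 18.1 to 19.5 CPM in 14B5 (log2FC -0.74).

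Hypoxia, glycolysis and sterol genes were lower in 11H1. Of 20 hypoxia response genes tested, 14 were lower and 2 higher (median log2FC -0.51), and the list was below WT in both clones, with medians of -1.19 in 11H1 and -0.70 in 14B5. Beside BNIP3, DDIT4, an inhibitor of mTORC1, was at 7.58, 8.88 and 7.03 CPM in 11H1, 26.1, 33.1 and 24.1 CPM in 14B5 and 30.0 to 38.2 CPM in WT. PFKFB4, a regulator of glycolysis, was at 20.3 to 21.3 against 48.6 to 58.8 CPM, with WT at 105 to 126 CPM. Of 33 glycolysis and pentose phosphate genes, 26 were lower and 3 higher in 11H1 (median -0.24). PDK1, PGAM1 and LDHA were 1.63-fold, 1.62-fold and 1.42-fold lower, with WT above both clones in each. Of 32 cholesterol and fatty acid genes, 20 were lower and 4 higher (median -0.19).

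Cytokine receptors and antigen presentation genes were also lower in 11H1. Of 34 cytokine receptor genes, 20 were lower and 5 higher (median -0.31). Beside LEPR, IL18R1 was at 0.658 to 0.660 CPM against 2.10 to 2.17 CPM, and IL9R, whose reads are divided between copies on X and Y, was 2.15-fold lower. Of 35 JAK, STAT and feedback genes, 15 were lower and 8 higher, with JAK3 higher in 11H1 (192 to 199 against 120 to 129 CPM), PIM1, a STAT5 target kinase, lower (330 to 346 against 525 to 534 CPM), and the cytokine OSM lower (1.65 to 2.24 against 5.25 to 6.22 CPM). Of 21 MHC class I presentation genes, 15 were lower and 2 higher (median -0.42). PSMB9, an immunoproteasome subunit, was at 39.7, 44.6 and 44.0 CPM in 11H1 and 71.2, 77.4 and 84.2 CPM in 14B5, and TAP1, a peptide transporter, at 92.3 to 103 against 161 to 167 CPM. HLA-B and HLA-C were 1.46-fold and 1.47-fold lower, in genes whose alleles and paralogs share reads. Class II genes (3 higher, 4 lower of 9) and interferon-stimulated genes (17 higher, 15 lower of 40) were split. RSAD2, an antiviral enzyme, was higher in 11H1 at 18.39 to 19.96 against 6.41 to 6.92 CPM, and LGALS3BP was lower.

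Cell cycle lists were lower in 11H1 by small amounts. Of 42 S phase genes, 27 were lower and 4 higher (median -0.22), and of 51 G2/M genes, 30 were lower and 8 higher (median -0.18). These medians came to -0.05 and -0.03 with the trend of length and level, described further on, removed. PCNA, the sliding clamp of DNA polymerase, was at 233, 240 and 232 CPM in 11H1 and 352, 338 and 356 CPM in 14B5, with WT at 227 to 229 CPM. MKI67, a proliferation marker, went the other way at 210 to 248 against 134 to 161 CPM. Of 13 DREAM and MuvB subunit genes, 7 were lower and 1 higher (median -0.21), with MYBL2 at 230 to 251 against 289 to 296 CPM and TFDP1 at 67.2 to 72.5 against 91.9 to 93.4 CPM. Of 13 DYRK, CLK and HIPK kinase genes, 7 were higher and 1 lower (median 0.13), HIPK2 the most at 67.3 to 77.0 against 30.6 to 38.3 CPM. Of 31 proteasome genes, 21 were lower and none higher (median -0.21), as in PSMA6 at 168 to 179 against 223 to 254 CPM. The proteasome median came to 0.00 with that trend removed. Of 77 cytosolic ribosomal protein genes, 70 were lower and none higher (median -0.40), RPL13 at 239 to 284 against 373 to 437 CPM. Replication-dependent histone genes, a list added after their values were seen, had 30 of 44 higher and 1 lower (median 1.06), with HIST1H4H at 9.85, 9.45 and 10.1 CPM in 11H1, 2.56, 2.14 and 2.31 CPM in 14B5 and 2.22 to 2.71 CPM in WT. HIST2H2BF was 5.90-fold higher in 11H1. Most mRNAs of these histones carry no poly(A) tail, and their level in poly(A)-selected libraries was not compared with another library type here.

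Among developmental genes, HOX genes were lower in 10 of 23 and higher in 2 (median -0.17). HOXD13 was at 0.789, 0.957 and 0.867 CPM in 11H1, 4.15, 3.87 and 4.25 CPM in 14B5 and 5.48 to 6.70 CPM in WT, and HOXA10 at 11.3 to 12.6 against 26.1 to 27.8 CPM. Clustered protocadherins, cell adhesion genes read from alternative promoters, were higher in 13 of 24 and lower in 1 (median 0.70), with PCDHB13 at 4.13 to 4.39 against 1.78 to 2.003 CPM. Of 26 DNA methylation and chromatin genes, 14 were higher and 7 lower. Among the higher were the histone methyltransferase genes KMT2A, at 342 to 395 against 173 to 196 CPM, and KMT2D, at 250 to 303 against 92.8 to 150 CPM. Receptor tyrosine kinases were higher in 17 of 31 (54.8%) and lower in 7 (22.6%), with a median of 0.27 that came to 0.07 with the trend of length and level, described further on, removed. Integrins and tetraspanins were split (14 higher, 15 lower of 40), with ITGA9 at 17.6 to 18.3 against 2.78 to 3.09 CPM. Matrix genes were split too (9 higher, 7 lower of 26), and SDC4, a syndecan, was at 18.9 to 20.9 CPM in 11H1, 61.7 to 62.1 CPM in 14B5 and 16.6 to 18.0 CPM in WT. Metalloproteinases were higher in 12 of 24 and lower in 5. Lysosomal genes (8 higher, 12 lower of 34) held CTSZ on the one side and MITF, a transcription factor of lysosomal and mast cell genes, on the other, at 0.568 to 1.26 against 3.88 to 4.11 CPM.

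The remaining lists concern signaling, cell death and stress. Several had shares near those of all genes. ERK feedback genes were higher in 9 of 26 (34.6%) and lower in 5 (19.2%), and NF-kB genes higher in 9 of 24 (37.5%) and lower in 6. TGF-beta and BMP genes were higher in 9 of 28 (32.1%) and lower in 12 (42.9%), and WNT and Notch genes higher in 8 of 30 (26.7%) and lower in 10 (33.3%), NOTCH1 being 2.04-fold higher. BCL2 family genes were higher in 4 of 17 (23.5%) and lower in 9 (52.9%), p53 targets higher in 9 of 25 (36.0%) and lower in 11 (44.0%), and stress response genes higher in 2 of 24 (8.33%) and lower in 12. Of 53 cancer-testis genes only 5 passed the filter, 4 higher and 1 lower.

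**Figure D4:**
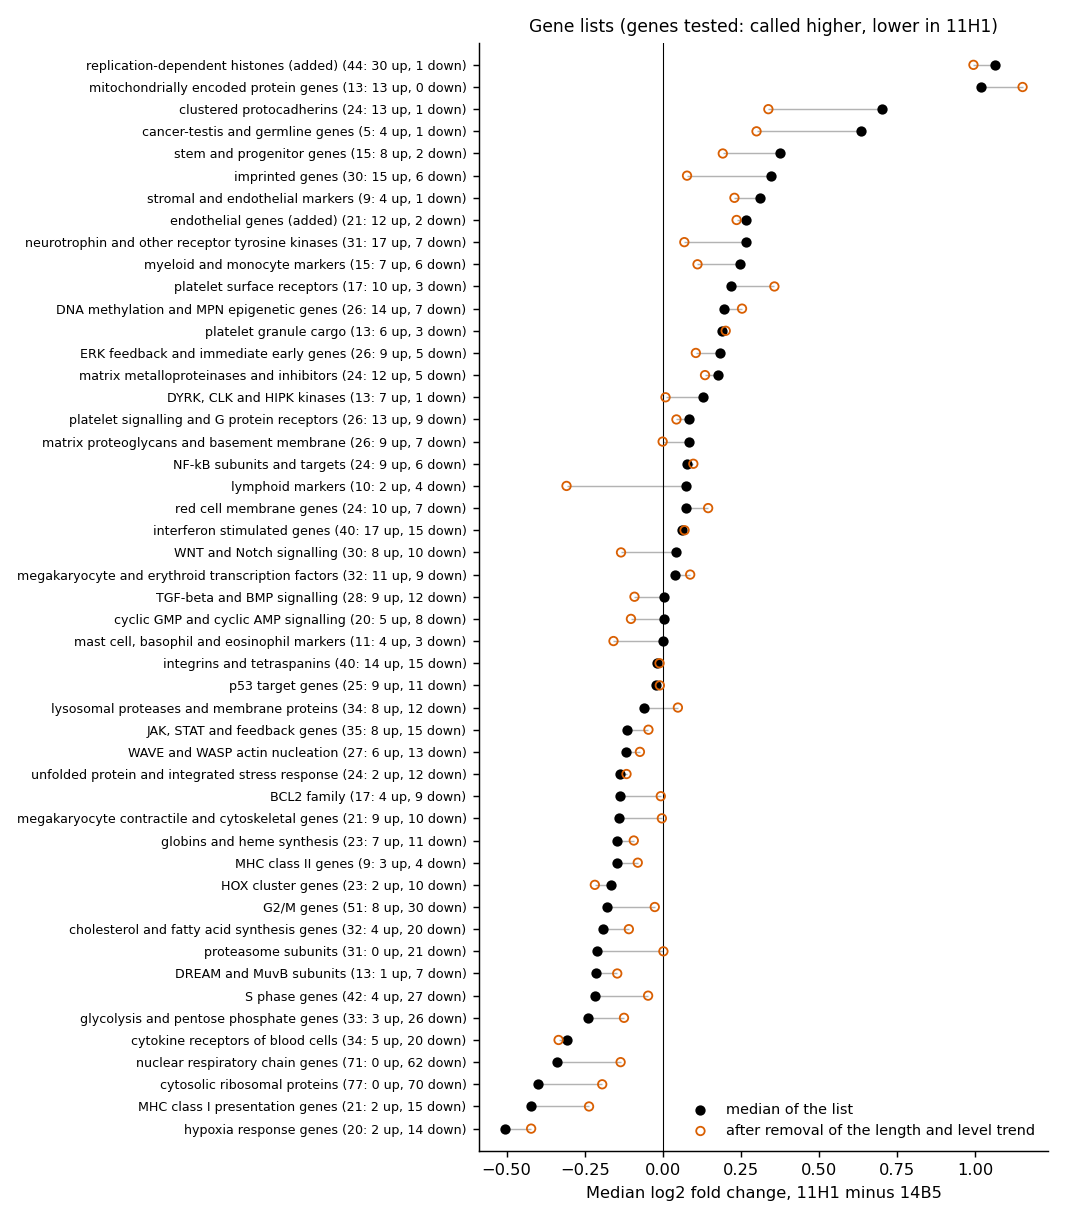
Median log2 fold change of 11H1 minus 14B5 for gene lists with at least 5 genes tested (filled points) and the same after a trend with exon length and level over protein-coding genes was removed (open points). Open points cover only the protein-coding members of a list. Labels give the genes tested and the numbers higher and lower in 11H1; the histone and mitochondrially encoded lists are near 1 on both scales, and the proteasome median moves from -0.21 to 0.00.

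Gene class, level and length moved with the direction of the difference. Among 13071 protein-coding genes the median log2FC was -0.05, with 333 beyond 2-fold higher and 78 lower, whereas the median of 1977 long noncoding RNAs was 0.45 (151 higher and 15 lower). The 144 genes classed TEC, single-exon transcripts still to be experimentally checked, were called higher in 85 cases and lower in 1 (median 0.95). Processed pseudogenes, intronless copies of mRNAs, had a median of -0.20. By level, the median fell from 0.50 in genes under 0.5 CPM to -0.12 in genes over 100 CPM. By exon length, the median was -0.22 in protein-coding genes of 192 to 2858 bases and 0.14 in those of 8159 to 46064 bases. The long noncoding share of all counts was 1.30% to 1.33% in WT, 1.48% to 1.51% in 11H1 and 1.15% to 1.17% in 14B5.

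**Figure D5:**
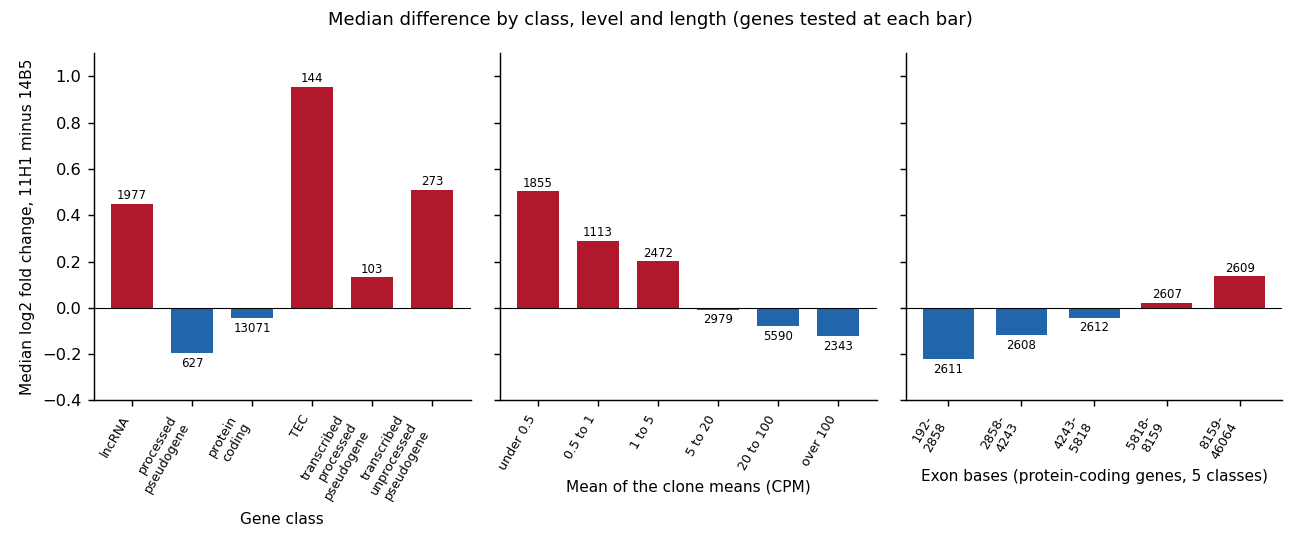
Median log2 fold change of 11H1 minus 14B5 by gene class (left), by mean of the clone means in CPM (middle) and by 5 classes of exon length, equal in number of genes, over protein-coding genes (right); the numbers at the bars are the genes tested. Medians run from 0.50 to -0.12 with rising level and from -0.22 to 0.14 with rising length.

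With the trend of length and level removed, the medians of the proteasome, S phase and G2/M lists came to 0.00, -0.05 and -0.03, and those of the nuclear respiratory chain and ribosomal protein lists to -0.14 and -0.19, in place of -0.34 and -0.40. The imprinted list came to 0.08 in place of 0.35 and the protocadherin list to 0.34 in place of 0.70. The DYRK, CLK and HIPK list came to 0.0088 in place of 0.13, and the BCL2 family list to -0.0065 in place of -0.14. The glycolysis list came to -0.12 in place of -0.24 and the cholesterol and fatty acid list to -0.11 in place of -0.19. The stem and progenitor list came to 0.19 in place of 0.37. The hypoxia (-0.42), cytokine receptor (-0.33), MHC class I (-0.24), platelet surface (0.36), mitochondrially encoded (1.152) and histone (0.99) lists kept their sign. Of 49 list medians, 35 moved by more than the spread between libraries and 8 turned sign: lymphoid markers (0.08 to -0.31), WNT and Notch (0.04 to -0.13), lysosomal (-0.06 to 0.05), matrix (0.08 to -0.00047), mast cell (0.0011 to -0.16), TGF-beta and BMP (0.0029 to -0.09), cyclic nucleotide (0.0023 to -0.10) and proteasome (-0.21 to 0.0019) genes. The part of RNA quality or library preparation in the trend was not tested.

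No chromosome stood out as a whole, since chromosome medians ran from -0.10 to 0.11. In 294 windows of 10000000 bases with at least 10 genes tested, the quartiles of the medians were -0.12 and 0.05, and 14 windows were beyond 0.25 in size. The highest was on chromosome 12 (130000001 to 140000000, 33 genes, median 0.57), followed by chromosome 6 from 20000001 to 30000000 (107 genes, median 0.43, 17 beyond 2-fold), which holds the main histone cluster. The lowest was on chromosome 14 (40000001 to 50000000, 32 genes, median -0.42), where 16 genes were lower and 1 higher and none passed 2-fold. DNA copy number was not measured in this series.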

How the data were processed

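RNA-seq of SET2 cells was deposited as 1 table of expected counts. The authors made these expected counts with RSEM, which splits a read over the genes it could have come from, and did not scale them for depth or length. Per the labels, the processing used STAR 2.7.9a, Picard, RSEM and GRCh38; the annotation release and the RSEM version are not given in the sources used here. The labels name a SMARTER mRNA library kit and the study's methods a stranded mRNA kit, so whether counting used strand is not settled. All 92 spike-in entries of the 60754 were left out.

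Samples were grouped by title. For the test the values were rounded to whole numbers, and edgeR 4.0.16 was run under R 4.3.3 (TMM, filterByExpr, quasi-likelihood F test, glmTreat with a log2 fold change of 1, Benjamini-Hochberg adjustment, threshold 0.05). CPM use TMM over all 9 libraries, and SDs or ranges are over 3 libraries. Single values were compared by exact permutation. Coordinates and exon lengths came from GENCODE v29 (GRCh38), which placed 16184 of the genes tested (99.0%), and promoters from RefSeq (GRCh38.p14), matched by symbol or identifier. The test was tried on simulated data. Alternatives were limma 3.58.1, DESeq2 1.42.0, other filters, other scalings, a replicate block and each library left out. Libraries of a clone differed by more than sampling noise (chi-square per gene of 4.05 or more), so none was a copy.

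The genes named were DYRK1A, the 10 protein-coding genes furthest above and the 10 furthest below among those beyond 2-fold with at least 5 CPM in the higher clone, the 5 of highest level in each direction, up to 4 members a list (some items are not reported here), and the genes present in only 1 clone. KDR, FGD5, ROBO4, MEG8, MEG9, 3 genes of the chromosome 19 run, KLF1, LDHA, PSMA6, PIM1, MYBL2, TFDP1, HLA-B and HLA-C were added after their values were seen. The comparison and the gene lists were chosen with earlier results of these data known.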

Additional observations from a re-analysis of the deposited data

Results flagged for a closer look

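Among the genes named, 18 were beyond 2-fold between the clones with every library of 11H1 on one side of all WT libraries and every library of 14B5 on the other. In 3 of them 1 clone was not called different from WT by edgeR: THBS1 in 11H1 (log2FC 0.08, adjusted p = 0.356), CD9 in 11H1 (log2FC -0.32, adjusted p = 0.0856) and IL18R1 in 14B5 (log2FC 0.34, adjusted p = 0.0885). The difference tested is that between the clones, given here as log2FC of 11H1 minus 14B5. With 11H1 above WT and 14B5 below it stood TSBP1-AS1 (7.55), MEG3 (6.82), ADRA2A (4.29), F2RL2 (3.48), CACNG8 (3.22), ZNF280D (3.22), CD3D (3.13), THBS1 (2.19), KCNQ1OT1 (1.89), MT-RNR1 (1.18) and MT-RNR2 (1.12). With 14B5 above WT and 11H1 below it stood AC005394.1 (-4.98), AC005394.2 (-4.93), AC005381.1 (-4.24), CD9 (-1.89), FGF2 (-1.87), IL18R1 (-1.64) and LEPR (-1.19). Both of the mitochondrial ribosomal RNAs were in the first set, and 3 of the neighboring genes of chromosome 19 in the second. In the whole table, 156 and 22 of the 649 genes had these arrangements. No cause was tested.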

How the results depend on the processing

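The direction and the side of the threshold were kept in all 1449 values computed for 99 named genes over 15 alternatives, DYRK1A apart. Such genes were named for passing the main test or after their values were seen, so this does not describe the 10419 calls at large. The number of genes that differed ranged from 8661 to 11170 across all alternatives, beside 10419. The 8661 came from protein-coding genes only, of which the main test had called 3872 higher and 4868 lower. The 11170 came with no filter on low counts, so both ends rest on another set of genes. Leaving out 1 library in turn gave 9193 to 10204 genes that differed and 470 to 623 beyond 2-fold. The count beyond 2-fold was 355 by the DESeq2 Wald test (301 higher and 54 lower in 11H1) and 426 by limma-voom (364 and 62). All 355 DESeq2 calls and 425 of the 426 limma-voom calls were among the 649. Whether a gene passed 2-fold thus depended on the method for a large part of the 649. With protein-coding genes only the count was 429 (355 higher), and 407 of them were among the 649. In that class the main test had 333 higher and 78 lower. The lower genes numbered 158 with no filter on low counts and 59 with at least 10 counts in every library. DYRK1A passed the threshold with protein-coding genes only (log2FC 0.11, adjusted p = 0.0482), where scaling moved by the genes left out, and its adjusted p ranged from 0.0896 to 0.569 with 1 library left out. The genes present in only 1 clone were 10 at up to 10 counts in the lower clone and 14 at 0.5 CPM or more in the higher clone, and 4 to 6 with 1 library left out. The mitochondrial difference stayed between 3.58 and 3.89 percentage points with 1 library left out and was 3.04 for the protein genes alone. The position of WT was kept under its alternatives (265 to 286 and 67 to 69 genes). Of 49 list medians, removal of the trend of length and level moved 35 and turned the sign of 8. That alternative was chosen after seeing the data and kept only protein-coding members of a list. Protein-coding genes only moved 23 and turned 2 (integrins and tetraspanins, p53 targets). With 1 library left out 2 to 12 moved and 2 to 5 turned sign, with at least 10 counts in every library 12 and 3, and with no filter on low counts 8 and 3.

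Same-numbered libraries of the clones did not deviate together (r = 0.0223, -0.0861 and 0.0494), so the numbers do not pair them. With a replicate block 10099 genes differed and 639 were beyond 2-fold, of which 615 were shared with the 649. Counts of 3 or fewer in a clone limit what can be said of genes near 0, since 3 counts correspond to 0.0509 to 0.0897 CPM in these 6 libraries.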

Other observations

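Other neighboring genes moved together between the clones. SLAMF7, CD244 and ITLN1, the first 2 being receptors of natural killer cells and the other a lectin, lie within 146 kb on chromosome 1 (160739057 to 160885170) and were all beyond 2-fold higher in 11H1, with log2FC of 1.91 to 2.52. AC011448.1, YJEFN3 and CILP2 on chromosome 19 (19516227 to 19546659, 30.4 kb) were higher by 1.69 to 1.97 on the log2 scale, and WASH5P, LINC01002 and AC010507.2 at the end of the same chromosome (60951 to 239440) by 1.42 to 1.83. WASH5P belongs to a family of near-identical copies, so its reads cannot be placed with certainty. HIST2H2BF, AC243772.2 and HIST2H4A on chromosome 1 (149782689 to 149839767) were higher by 1.79 to 2.59, in a cluster where HIST2H4A also has a near-identical copy. These genes were chosen after their values were seen, and no test was made of the runs themselves.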
